A study of Mus musculus with 8 samples.

Results

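The livers of mice kept on a high-fat, choline-deficient (HFCD) diet were examined for the mRNA of 10 metabolic and xenobiotic nuclear receptors. The set was listed by gene symbol and not by a rule on measured values, but with earlier results of these data known. The receptors were Nr1i2 (PXR), Nr1i3 (CAR), Ppara, Ppard, Pparg, Rxra, Nr1h3 (LXRα), Nr1h2 (LXRβ), Nr5a2 (LRH-1) and Nr3c1 (the glucocorticoid receptor, GR). All 10 were found among the 49585 genes counted, and all 10 passed the filter on low counts that left 16496 genes for testing. RNA of whole liver was sequenced from 8 male mice after 3 months on the diet, started at 21 days of age. LP245/+ mice (n = 3) carried Alb-CreTG and Trp53wm-R245W/+, an allele that expresses wild-type p53 until Cre recombines it to the R245W mutant. LPfl/+ mice (n = 2) carried Alb-CreTG and Trp53fl/+, of which the floxed copy is deleted by Cre. LP+/+ mice (n = 3) were labelled Alb-Cre0, without Cre, so that their unrecombined Trp53fl/+ (replicates 1 and 2) or Trp53wm-R245W/+ (replicate 3) allele was left in its wild-type state. All 3 groups shared the diet and each animal kept a wild-type Trp53 allele. The Alb promoter drives Cre in hepatocytes and in cells of the bile ducts, so the other cells of these livers kept wild-type p53 in every group. The sources differ on the controls, since the study's text describes LP+/+ as carriers of Alb-Cre with unaltered Trp53 and its methods name both Cre-negative and Alb-Cre littermates as controls. The labels were followed here, and whether the presence of Cre differed between LP+/+ and the other groups therefore rests on them.

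Nuclear receptors are transcription factors whose activity is set by small lipid-soluble ligands. Most of the receptors described here bind DNA together with RXRα, whereas LRH-1 can bind as a single molecule and GR is held by chaperones until a glucocorticoid reaches it. In the liver PXR and CAR switch on drug-clearing enzymes, the PPARs handle fatty acids, the LXRs sense oxysterols, LRH-1 serves bile acid synthesis, and GR carries the hormonal signal of fasting and stress. Their activity depends on ligand, partner and location in the cell as well as on amount, and mRNA measures only the amount of transcript. In RNA of whole liver, fewer cells of a type and less RNA per cell cannot be told apart.

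The libraries held from 26304526 to 31370714 counts, and levels are given as CPM, counts scaled to a common library size after adjustment by the trimmed mean of M-values (TMM). The target of the alleles was checked first. Trp53 lay between 190 and 306 counts in the LP+/+ and LP245/+ livers and at 125 and 176 counts in the LPfl/+ livers, and Cdkn1a, a p53 target that halts the cell cycle, lay between 144 and 195 counts in LP+/+, at 74 and 99 in LPfl/+ and between 14 and 27 in LP245/+. A gene count cannot tell the R245W transcript from the wild-type one. All 8 hepatocyte markers were present, with a summed level of 98110 to 142100 CPM in every liver. The library numbers in the labels form 2 series, the first with the 3 LP245/+ livers and LP+/+ replicates 2 and 3, and the second with LP+/+ replicate 1 and both LPfl/+ livers. No series holds both LP245/+ and LPfl/+, and what else the series have in common is not given in the sources used here.

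The start-site windows of 4 receptor genes are shown, because these genes carry the differences described below: the receptors that separated the livers most (Nr1i3 and Ppard) and those with an unadjusted p below 0.05 in a comparison (Ppara and Rxra). Each runs 5′ to 3′ from 250 bases before to 50 bases after a RefSeq transcript start on GRCm38.p6, on the plus strand, at chr1:171213720-171214019 for Nr1i3, chr17:28232504-28232803 for Ppard, chr15:85735526-85735825 for Ppara and chr2:27709042-27709341 for the downstream of the 2 Rxra starts in the table. Capitals mark AGGTCA, the core that many nuclear receptors bind, and CACGTG, the E-box bound by clock factors among others, searched on both strands.
Nr1i3: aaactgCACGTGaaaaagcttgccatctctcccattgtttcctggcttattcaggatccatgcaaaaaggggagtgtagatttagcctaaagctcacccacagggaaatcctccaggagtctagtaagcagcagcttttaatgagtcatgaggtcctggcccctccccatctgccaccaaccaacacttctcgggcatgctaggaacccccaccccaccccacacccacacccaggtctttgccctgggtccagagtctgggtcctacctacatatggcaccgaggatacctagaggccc
Ppard: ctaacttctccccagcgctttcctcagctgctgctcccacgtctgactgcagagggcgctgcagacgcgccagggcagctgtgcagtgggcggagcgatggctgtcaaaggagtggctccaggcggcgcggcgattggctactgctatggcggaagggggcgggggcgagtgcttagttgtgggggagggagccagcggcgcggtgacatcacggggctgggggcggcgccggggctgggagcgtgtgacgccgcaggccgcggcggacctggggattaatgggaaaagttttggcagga
Ppara: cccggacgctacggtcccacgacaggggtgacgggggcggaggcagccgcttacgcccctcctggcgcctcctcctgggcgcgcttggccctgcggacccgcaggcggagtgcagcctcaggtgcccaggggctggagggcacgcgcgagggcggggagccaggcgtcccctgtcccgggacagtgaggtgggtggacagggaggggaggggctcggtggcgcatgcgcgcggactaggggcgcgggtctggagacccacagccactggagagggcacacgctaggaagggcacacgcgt
Rxra: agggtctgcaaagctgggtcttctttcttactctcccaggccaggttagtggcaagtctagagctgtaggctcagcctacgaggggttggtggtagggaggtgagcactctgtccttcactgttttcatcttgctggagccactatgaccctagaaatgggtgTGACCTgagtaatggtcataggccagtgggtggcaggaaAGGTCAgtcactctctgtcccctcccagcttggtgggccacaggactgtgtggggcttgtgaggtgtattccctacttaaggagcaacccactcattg
The Nr1i3 window held 1 CACGTG, which begins at position -244 from the start, and 3 CpG. The downstream Rxra window held AGGTCA at -87, read on the opposite strand, and at -48, and 1 CpG. The upstream Rxra window, which is not shown, held neither motif and had 55 CpG. The Ppard and Ppara windows held neither motif but had 27 and 30 CpG, where the median over all windows of this length was 7. AGGTCA occurred in 16.3% and CACGTG in 7.15% of the 32851 windows in the table, so these letters describe the windows and do not mark sites.

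The receptors differed far more between genes than between genotypes. Divided by the length of the merged exons, the mean level over the 8 livers was highest for Rxra, the shared partner, at 75.9 CPM per kilobase (range 62.5 to 88.8). Ppara followed at 49.9 (40.2 to 57.6) and Nr1h3 at 42.4 (39.1 to 46.9), and the ranges of this pair overlapped. Nr1i2 at 28.9 (20.7 to 37.4) overlapped Nr3c1 at 22.4 (21.6 to 24.0), and Nr5a2 stood below both, between 13.0 and 17.6. Nr1h2 at 6.59, Nr1i3 at 4.52 and Pparg at 3.73 overlapped from neighbour to neighbour. Ppard, the isoform found in most tissues, was lowest at 0.477 (0.281 to 1.37) and did not overlap Pparg. The level per kilobase of Nr1i3 is uncertain, because 3304 of its 4414 merged exon bases are shared with Tomm40l on the opposite strand and the strand that was counted is not given in the sources used here. Tomm40l itself lay between 3.53 and 5.89 CPM and did not follow the pattern of Nr1i3 across livers.

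Among all 49 nuclear receptor genes, 40 of which passed the filter, the 10 receptors took 40.1% to 44.4% of the family's summed level per kilobase in a liver. Hnf4a, which maintains hepatocyte identity, was the most abundant of the family, and Rxra, Ppara, Nr1h3, Nr1i2, Nr3c1 and Nr5a2 held places 2, 4, 5, 7, 8 and 11. Nr1h2, Nr1i3 and Pparg held places 15, 18 and 21, and Ppard place 34. Within pairs of related receptors the order was the same in all 8 livers. Nr1h3 exceeded Nr1h2 by 5.21-fold to 9.72-fold per kilobase, Ppara exceeded Pparg by 11.2-fold to 20.6-fold, Nr1i2 exceeded Nr1i3 by 4.78-fold to 9.998-fold, and Rxra exceeded Rxrb by 15.1-fold to 19.1-fold. The place of Nr1i3 and the size of its ratio to Nr1i2 are as uncertain as its level per kilobase, because of the overlap with Tomm40l.

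**Figure D1:**
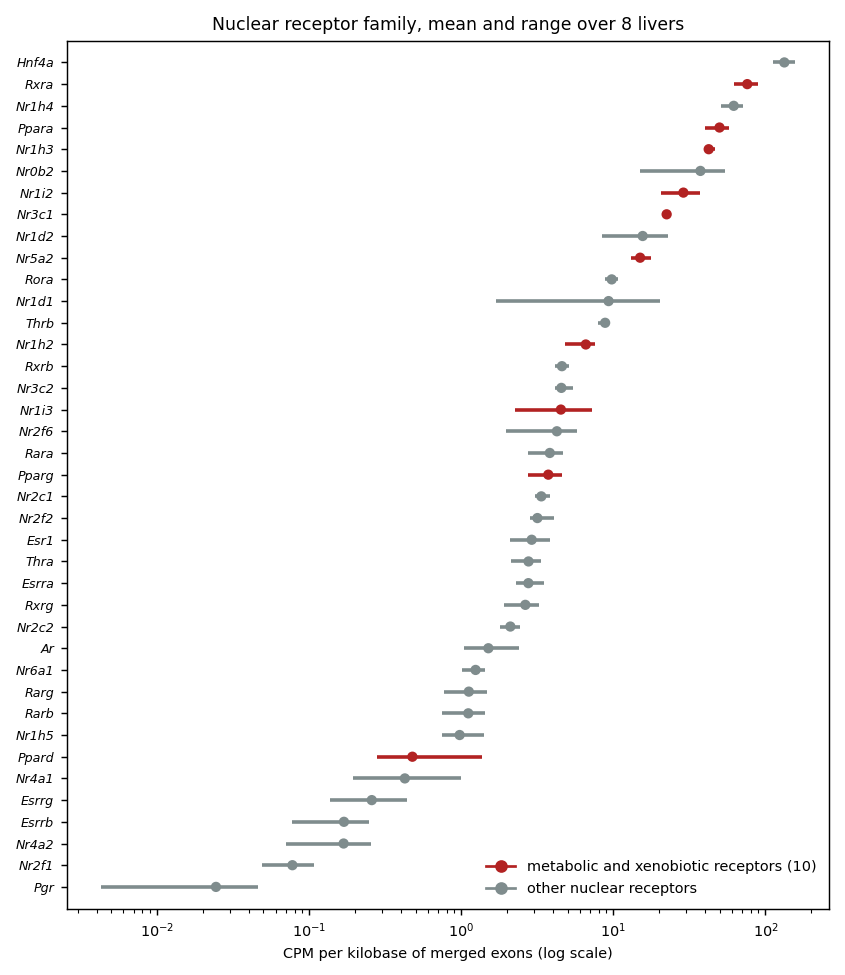
Levels of the nuclear receptor genes that passed the filter and are reported here, in CPM per kilobase of merged exons on a log axis, with points for the mean and lines for the range over the 8 livers; the 10 receptors described here are red and the others grey. Rxra, at 75.9, stands below Hnf4a alone, and Ppard, at 0.477, is the lowest of the 10.

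The question put to each receptor was whether its transcript differed between the genotypes, tested with edgeR's quasi-likelihood test over all genes. A gene was called where its level changed at least 2-fold in either direction (1 on the log2 scale) and its adjusted p was 0.05 or less. Between LP245/+ and LP+/+, 0 of the 10 receptors passed, against 0.00606% of all genes tested, and 0 had an unadjusted p below 0.05, against 5.93%. Between LPfl/+ and LP+/+, 0 passed, against 0%, and 0 had an unadjusted p below 0.05, against 6.89%. Between LP245/+ and LPfl/+, 0 passed, against 0%, and 2 of the 10, Ppara and Rxra, had an unadjusted p below 0.05, against 8.51%. DESeq2 also passed 0 receptors in each comparison and gave 0, 1 and 2 with an unadjusted p below 0.05. Counted by groups that did not overlap, the receptors numbered 0, 4 and 5 in the 3 comparisons, against 11.6%, 24.9% and 25.4% of all genes. The median log2 fold change of the 10 was -0.02, -0.19 and 0.13, beside medians of 0.003, -0.001 and 0.004 over all genes tested. The comparisons share livers and the p-values measure the spread between these 8 animals.

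**Figure D2:**
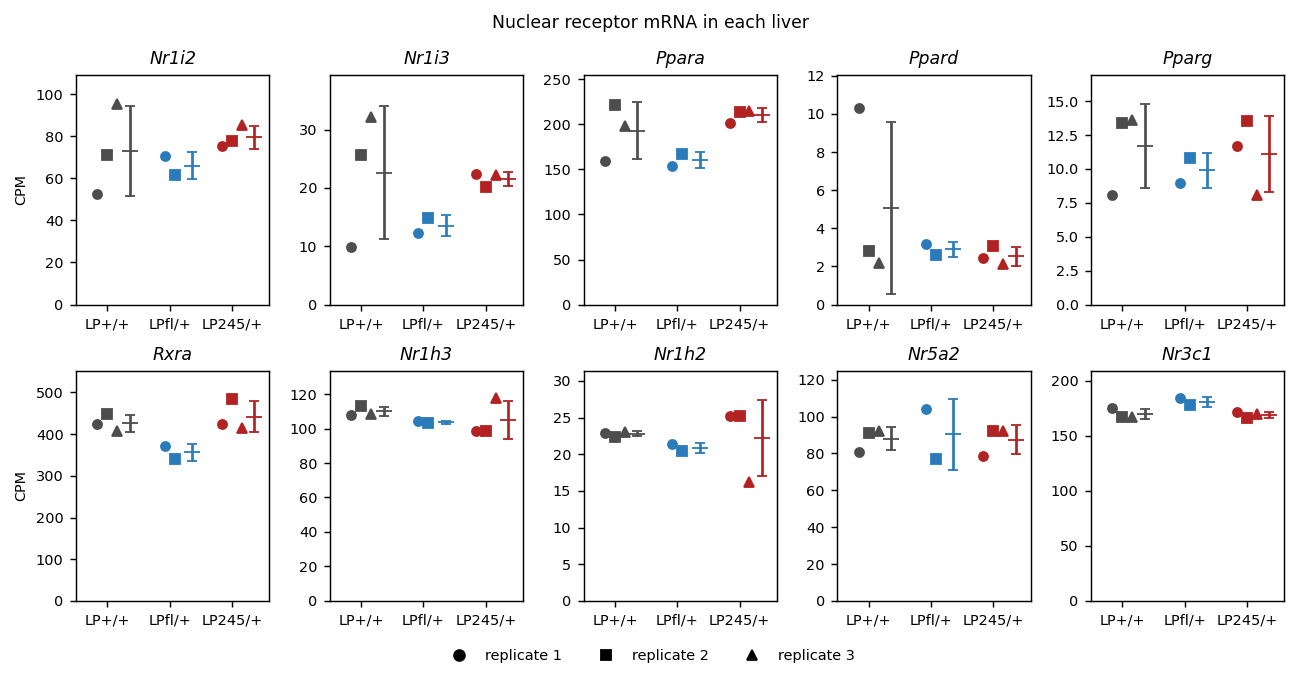
Level of each of the 10 receptors in CPM in every liver (circles, squares and triangles for replicates 1, 2 and 3), with the mean and SD of each genotype at the right of its points; axes start at 0. In Ppard 1 LP+/+ liver lies at 10.3 CPM and the other 7 livers at 3.19 CPM or lower, while Nr3c1 stays between 166 and 184 CPM.

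Of the xenobiotic sensors, CAR varied more between livers than PXR. Nr1i3 was counted at 9.95, 25.7 and 32.1 CPM in LP+/+ replicates 1, 2 and 3, at 12.2 and 14.8 CPM in LPfl/+, and at 22.3, 20.1 and 22.2 CPM in LP245/+. Both LPfl/+ livers were below all 3 LP245/+ livers, whereas the LP+/+ livers held the lowest and the highest value of all 8. The log2 fold change was -0.74 (SE 0.37, 95% interval -1.58 to 0.09, adjusted p = 0.754) in LPfl/+ and -0.07 (SE 0.32, 95% interval -0.79 to 0.66, adjusted p = 0.984) in LP245/+, each against LP+/+ with edgeR. Between LP245/+ and LPfl/+ it was 0.68 (SE 0.37, 95% interval -0.16 to 1.51, adjusted p = 0.663). The fold changes of this gene against LP+/+ depended on single LP+/+ livers. Without LP+/+ replicate 3 they became -0.41 in LPfl/+ and 0.27 in LP245/+ on the log2 scale. Without LP+/+ replicate 1, Nr1i3 was lower in LPfl/+ than in LP+/+ by a log2 fold change of -1.10 with an adjusted p of 0.0141 (edgeR). This was the only time a receptor passed the cutoff under any setting tried, and the 2 LP+/+ livers then left both came from the first library series. Within the second series the log2 ratio of LPfl/+ to LP+/+ replicate 1 was 0.44, of the opposite sign.

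Nr1i2 was measured at 52.7, 71.0 and 95.4 CPM in LP+/+, at 70.6 and 61.4 CPM in LPfl/+, and at 75.1, 77.7 and 85.5 CPM in LP245/+. The LP245/+ livers were all above the LPfl/+ livers, by a margin smaller than the spread within LP+/+, which enclosed both groups. The log2 fold change between LP245/+ and LPfl/+ was 0.27 (SE 0.21, 95% interval -0.20 to 0.73, adjusted p = 0.771, edgeR).

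Cyp3a11, a drug-oxidizing enzyme induced by PXR, was at 240, 1290 and 1808 CPM in LP+/+, 571 and 903 CPM in LPfl/+, and 916, 1508 and 971 CPM in LP245/+. The livers lowest in Cyp3a11 were LP+/+ replicate 1 and the LPfl/+ pair, the same 3 that were lowest in Nr1i2 and in Nr1i3. Cyp2b10, the classical CAR target, was counted 0, 22 and 44 times in LP+/+, 0 and 3 times in LPfl/+, and 12, 31 and 12 times in LP245/+. Cyp2b9 and Cyp2b13 are relatives of Cyp2b10, and the Cyp3a genes are related to one another. How reads matching more than 1 such gene were counted was not checked, so single values in these families are uncertain. Por, which passes electrons to these enzymes, was at 58.6, 145 and 125 CPM in LP+/+, 65.1 and 52.7 CPM in LPfl/+, and 170, 131 and 124 CPM in LP245/+. Por was higher in LP245/+ than in LPfl/+ in every liver, with a log2 fold change of 1.26 (SE 0.33) and an adjusted p of 0.362 (edgeR) that did not pass. Of the 21 PXR and CAR targets tested, 0 passed the cutoff in any comparison. Their median log2 fold change was -0.59 in LPfl/+ compared with LP+/+, where 4 had an unadjusted p below 0.05 and all 4 were lower. It was 0.26 in LP245/+ compared with LPfl/+, where 4 were higher and 0 lower, and -0.11 in LP245/+ compared with LP+/+, where 2 were lower. The 4 of 21 lie above the 6.89% and 8.51% of all genes, and the 2 of 21 stand beside 5.93%, but no test of the list was made. Gstm3, a glutathione transferase, had the smallest p of the list, and between LPfl/+ and LP+/+ its log2 fold change was -0.87 (SE 0.19, adjusted p = 0.697, edgeR).

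Ppara, the receptor that drives fatty acid oxidation, was at 159, 221 and 199 CPM in LP+/+, 154 and 167 CPM in LPfl/+, and 201, 214 and 215 CPM in LP245/+. Every LP245/+ liver exceeded both LPfl/+ livers, and LP+/+ replicate 1 lay among the LPfl/+ values. The log2 fold change between LP245/+ and LPfl/+ was 0.39 (SE 0.15, 95% interval 0.06 to 0.72), with an adjusted p of 0.525 (edgeR). Against LP+/+ it was 0.12 (SE 0.13) in LP245/+ and -0.27 (SE 0.15) in LPfl/+, neither of which passed (adjusted p = 0.905 and 0.757, edgeR). Within the library series the log2 ratio to LP+/+ was 0.00 for LP245/+ and 0.01 for LPfl/+, the latter against LP+/+ replicate 1 alone.

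Of the 24 PPARα targets tested, 0 passed the cutoff, 1 was higher and 0 lower at an unadjusted p below 0.05 in LP245/+ compared with LP+/+, 0 and 1 in LPfl/+ compared with LP+/+, and 1 and 0 in LP245/+ compared with LPfl/+. The medians of the targets were -0.06, -0.18 and 0.10. Of all genes, 5.93%, 6.89% and 8.51% had an unadjusted p below 0.05 in the 3 comparisons. The gene behind the counts of targets was Fgf21, a hormone made by the fasted or stressed liver. Fgf21 was at 4.14, 4.11 and 4.43 CPM in LP+/+, 2.61 and 2.43 CPM in LPfl/+, and 8.08, 6.75 and 7.62 CPM in LP245/+, and the 3 genotypes did not overlap. Its log2 fold change between LP245/+ and LPfl/+ was 1.57 (SE 0.17), with an adjusted p of 0.0818 (edgeR) that did not pass. Cyp4a14, which oxidizes the ends of fatty acids and responds strongly to PPARα, was at 4.14, 302 and 569 CPM in LP+/+, 81.2 and 41.9 CPM in LPfl/+, and 197, 275 and 175 CPM in LP245/+. The LP+/+ livers enclosed both other groups, and between LP245/+ and LPfl/+ the log2 fold change was 1.81 (SE 1.22, adjusted p = 0.733, edgeR).

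Ppard was at 10.3, 2.80 and 2.18 CPM in LP+/+, 3.19 and 2.61 CPM in LPfl/+, and 2.42, 3.05 and 2.11 CPM in LP245/+. A single liver, LP+/+ replicate 1, stood apart with 303 counts, and the other 7 held between 59 and 89 counts. It was 3.92-fold above the mean of the other 7. The log2 fold change was -1.01 (SE 0.51, 95% interval -2.15 to 0.13, adjusted p = 0.831) in LP245/+ and -0.81 (SE 0.57, 95% interval -2.10 to 0.47) in LPfl/+, both against LP+/+ with edgeR, and without LP+/+ replicate 1 these became 0.02 and 0.22. Angptl4, a lipase inhibitor induced by the PPARs, was at 105 CPM in that liver and between 95.3 and 179 CPM in the other 7.

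Pparg, whose mRNA rises in many fatty livers, was at 8.08, 13.4 and 13.6 CPM in LP+/+, 8.99 and 10.8 CPM in LPfl/+, and 11.7, 13.6 and 8.05 CPM in LP245/+. The 3 groups overlapped, and LP245/+ differed from LP+/+ by a log2 fold change of -0.07 (SE 0.23, 95% interval -0.60 to 0.45). Its targets in fatty liver, 10 of which were tested, had medians of -0.19, -0.10 and -0.12 in the 3 comparisons, with 0 past the cutoff. Cd36, a fatty acid transporter, was at 53.9, 142 and 119 CPM in LP+/+, 67.1 and 78.4 CPM in LPfl/+, and 69.7, 90.4 and 72.0 CPM in LP245/+. The liver lowest in Cd36 was LP+/+ replicate 1, and the liver lowest in Pparg was LP245/+ replicate 3. Cidea, a lipid droplet protein, had few counts, from 0 to 5 in the LP+/+ and LPfl/+ livers and 20, 14 and 11 in LP245/+. LP245/+ exceeded LP+/+ by a log2 fold change of 2.38 (SE 0.69) with an adjusted p of 0.795 (edgeR). Of the adipocyte markers, which could bring Pparg into a liver sample, 3 of 5 had at most 3 counts in any liver, 1 of them 0, and the summed level of the 5 lay between 6.34 and 9.85 CPM with overlapping groups.

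Rxra, the partner of the PPARs, LXRs, PXR and CAR, was at 424, 448 and 408 CPM in LP+/+, 371 and 341 CPM in LPfl/+, and 425, 485 and 415 CPM in LP245/+. Both LPfl/+ livers were below all 6 others. The log2 fold change was 0.31 (SE 0.12, 95% interval 0.03 to 0.59, adjusted p = 0.538) between LP245/+ and LPfl/+ and -0.26 (SE 0.12, 95% interval -0.54 to 0.02, adjusted p = 0.740) between LPfl/+ and LP+/+ (edgeR), neither past the cutoff. Leaving out single livers kept the latter between -0.33 and -0.22. Within the second library series the log2 ratio of LPfl/+ to LP+/+ was -0.25, against -0.26 in all livers, but it rests on LP+/+ replicate 1 alone. Between LP245/+ and LP+/+ the log2 fold change was 0.05 (SE 0.11, 95% interval -0.20 to 0.30).

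The LXRs are the sterol sensors of the set. Nr1h3 was at 108, 113 and 109 CPM in LP+/+, 104 and 103 CPM in LPfl/+, and 98.4, 98.8 and 118 CPM in LP245/+, and the LPfl/+ livers lay below LP+/+ without overlap by a log2 fold change of -0.09 (SE 0.11). Its log2 fold change between LP245/+ and LP+/+ was -0.07 (SE 0.10, 95% interval -0.29 to 0.16). Nr1h2 was at 22.9, 22.4 and 23.0 CPM in LP+/+, 21.3 and 20.4 CPM in LPfl/+, and 25.2, 25.2 and 16.2 CPM in LP245/+. LP245/+ replicate 3 held the lowest Nr1h2 and the highest Nr1h3 of all livers, and the ratio of the LXRs was widest there. Of the LXR targets, the 14 tested had 0 past the cutoff and medians of 0.07, -0.12 and 0.18. Between LP245/+ and LPfl/+, where 8.51% of all genes had an unadjusted p below 0.05, 3 of the 14 did, all higher. They were Scd1 and Fasn, which make and desaturate fatty acids, and Abcg8, a sterol exporter, with log2 fold changes of 0.83 (SE 0.25), 1.25 (SE 0.40) and 0.33 (SE 0.14). Abca1, the cholesterol exporter most used as an LXR readout, had a log2 fold change of 0.18 (SE 0.17) there and lay between 304 and 444 CPM.

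Nr5a2 was at 80.7, 91.2 and 92.4 CPM in LP+/+, 104 and 76.9 CPM in LPfl/+, and 78.4, 92.0 and 92.0 CPM in LP245/+. The LPfl/+ pair held the highest and the lowest value, and between LP245/+ and LP+/+ the 95% interval of the log2 fold change was -0.30 to 0.28. Cyp8b1, a bile acid hydroxylase under LRH-1, was at 485, 305 and 282 CPM in LP+/+, 241 and 304 CPM in LPfl/+, and 167, 236 and 182 CPM in LP245/+. It was lower in LP245/+ than in every other liver, with a log2 fold change of -0.88 (SE 0.22) against LP+/+ and an adjusted p of 0.795 (edgeR). The 11 LRH-1 targets had medians of 0.15, -0.20 and 0.23 with 0 past the cutoff. Between LP245/+ and LPfl/+, 3 of the 11 had an unadjusted p below 0.05 and were higher, against 8.51% of all genes. Among these 3 was Hnf4a, with a log2 fold change of 0.39 (SE 0.14).

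Nr3c1 was the steadiest of the set. It was at 175, 167 and 167 CPM in LP+/+, 184 and 178 CPM in LPfl/+, and 171, 166 and 169 CPM in LP245/+, and its SD over the livers was smaller than that of all but 0.4% of genes tested. The LPfl/+ pair was highest without overlap, by a log2 fold change of 0.09 (SE 0.10, 95% interval -0.13 to 0.32) against LP+/+. Between LP245/+ and LP+/+ the 95% interval was -0.21 to 0.20. Fkbp5, a chaperone that GR induces, ranged more widely, at 12.7, 31.3 and 34.6 CPM in LP+/+, 21.0 and 19.6 CPM in LPfl/+, and 43.6, 23.6 and 43.3 CPM in LP245/+. The 15 GR targets had 0 past the cutoff and medians of -0.08, -0.22 and 0.14. Between LP245/+ and LPfl/+, 2 had an unadjusted p below 0.05 and were higher and 3 were lower, against 8.51% of all genes. Zbtb16, a transcriptional repressor induced by glucocorticoids, was higher there by a log2 fold change of 1.57 (SE 0.32) and Mt1, a metallothionein, had one of -0.92 (SE 0.24), both with an adjusted p of 0.362 (edgeR). G6pc, the last enzyme of glucose output, had a log2 fold change of -1.05 (SE 0.36) in LP245/+ compared with LP+/+.

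**Figure D3:**
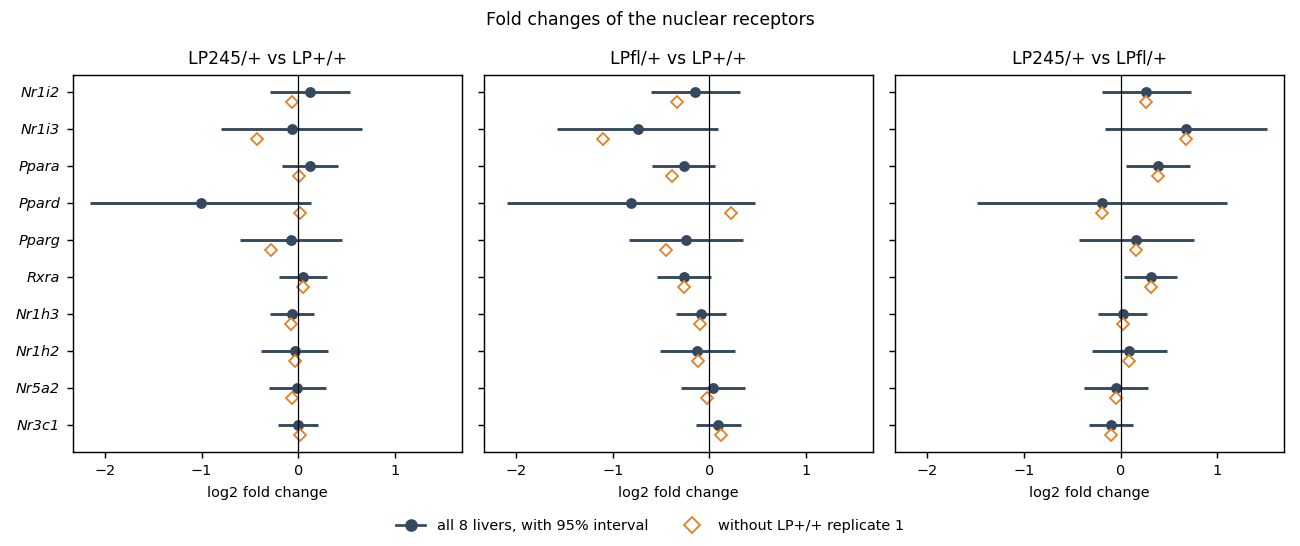
Log2 fold change of each receptor in the 3 comparisons, with the 95% interval from all 8 livers (dark) and the value without LP+/+ replicate 1 (orange diamonds). The interval excludes 0 only for Ppara and Rxra in LP245/+ compared with LPfl/+, and the diamonds move most for Ppard and Nr1i3 in the comparisons with LP+/+.

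The receptor levels were then set against the 2 series of library numbers. Of the 10 receptors, 4 did not overlap between the series, against 9.62% of all genes tested. Nr1i2 was at 71.0 to 95.4 CPM in the 5 livers of the first series and 52.7 to 70.6 CPM in the 3 of the second, Nr1i3 at 20.1 to 32.1 and 9.95 to 14.8 CPM, and Ppara at 199 to 221 and 154 to 167 CPM. Nr3c1 ran the other way and was higher in the second series. For the PXR, CAR and PPARα genes the LP+/+ liver of the second series thus lay on the side of LPfl/+ and not of the other LP+/+ livers. Of the PXR and CAR targets, 7 of 21 were higher in the first series without overlap and 0 lower, among them Cyp3a11, Cyp2b10, Abcc3 and Por. Of the PPARα targets, 7 of 24 were higher and 0 lower, among them Cyp4a10, Cyp4a14 and Acadl, all of fatty acid oxidation. For the targets of LRH-1 the numbers higher and lower were 3 and 0 of 11, for GR 2 and 1 of 15, for the LXRs 1 and 1 of 14, and for PPARγ 0 and 1 of 10. Because LP245/+ lies in the first series and LPfl/+ in the second, genotype and series cannot be told apart in the comparison of LP245/+ with LPfl/+ for any gene.

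Some genes of the circadian clock also parted by library series. Of 20, 5 were higher and 4 lower in the first series without overlap, against 9.62% of all genes tested. Clock genes parted LP245/+ from LP+/+ as well, where 0 of the 10 receptors did so. There 5 were higher and 4 lower without overlap, against 11.6% of all genes. Dbp, a clock output factor, was at 0.815, 7.75 and 3.57 CPM in LP+/+, 2.29 and 1.82 CPM in LPfl/+, and 23.7, 9.48 and 18.6 CPM in LP245/+, and Arntl (BMAL1), the opposing arm, was at 37.7, 18.9 and 23.2 CPM, 26.8 and 29.4 CPM, and 8.37, 17.7 and 12.5 CPM. LP245/+ livers were thus highest in Dbp and lowest in Arntl without overlap with either group. At an unadjusted p below 0.05, 9 of the 20 clock genes were higher and 4 lower in LP245/+ compared with LP+/+, against 5.93% of all genes. In LP245/+ compared with LPfl/+ these numbers were 9 and 3, against 8.51% of all genes. In both comparisons 0 clock genes passed the cutoff. Per2 had a log2 fold change of 0.76 (SE 0.15) and Dbp of 3.07 (SE 0.74) in LP245/+ compared with LPfl/+, and Cry1 one of -0.85 (SE 0.18) in LP245/+ compared with LP+/+. The labels do not give the hour at which livers were taken, and the part of the clock genes in the receptor differences was not tested.

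**Figure D4:**
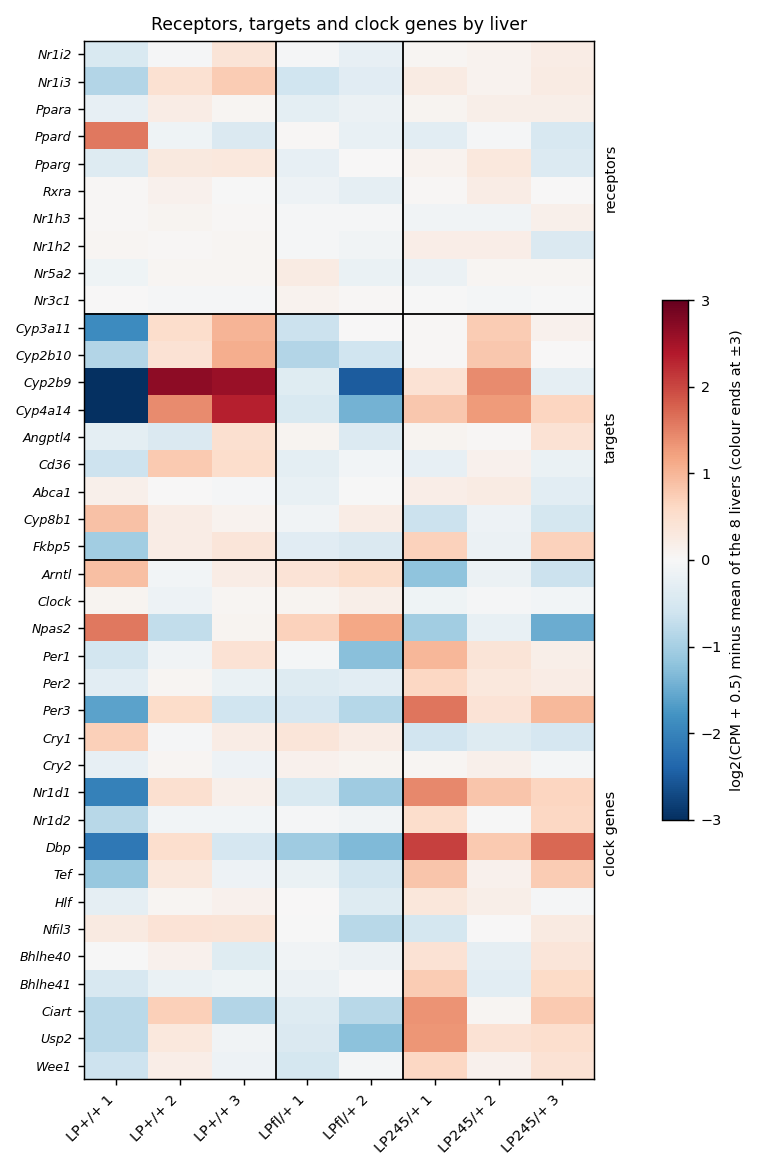
The 10 receptors, textbook targets, Cyp2b9 and reported clock genes (rows) in the 8 livers (columns), as log2(CPM + 0.5) minus the mean of the row, with colours ending at ±3; vertical lines part the genotypes. LP+/+ replicate 1 is blue in Nr1i3, Cyp3a11, Cyp2b9, Cyp4a14 and Nr1d1, where LP+/+ replicates 2 and 3 are red, and it is red in Ppard, where they are blue.

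Among the other nuclear receptors, 30 of which were tested, 0 passed the cutoff. Of all genes, 5.93% had an unadjusted p below 0.05 in LP245/+ compared with LP+/+, and of these 30 receptors 3 were higher and 4 lower. Among these were Esr1, the estrogen receptor, with a log2 fold change of -0.50 (SE 0.15), and Nr1d2, a clock repressor, with one of 0.69 (SE 0.22). In LPfl/+ compared with LP+/+ the receptors with such a p numbered 0 higher and 1 lower (6.89% of all genes). In LP245/+ compared with LPfl/+ they numbered 4 and 1 (8.51% of all genes). Of 20 genes that supply ligands or hold the receptors, such as Aldh1a1, Serpina6 and Fabp1, 0 had an unadjusted p below 0.05 in any comparison, with medians of -0.11, -0.09 and -0.02. Of 18 coactivators and corepressors, 0, 1 and 2 did, against 5.93%, 6.89% and 8.51% of all genes. Hdac3 was lower in LPfl/+ than in LP+/+ (log2 fold change -0.26, SE 0.11), and Lpin1 (1.48, SE 0.48) and Tbl1x (0.26, SE 0.11) were higher in LP245/+ than in LPfl/+, none past the cutoff.

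The markers of other liver cells were set beside these values. The summed level of the 8 Kupffer cell markers was 189 to 210 CPM in LP+/+, 189 to 252 CPM in LPfl/+ and 162 to 186 CPM in LP245/+, lower in LP245/+ without overlap. Clec4f made up much of this sum, at 84.6 to 134.5 CPM over the livers. Singly, 1 of the 8 was lower without overlap in LP245/+ compared with LP+/+ (11.6% of all genes did not overlap), and 0 had an unadjusted p below 0.05 (edgeR). Compared with LPfl/+, 2 of the 8 were lower without overlap (25.4% of all genes did not overlap). The summed level of the 7 endothelial markers was 392 to 503, 326 to 420 and 442 to 485 CPM, lower in LPfl/+ than in LP245/+ without overlap. Singly, 2 of these 7 were so, against the same 25.4% of all genes. The 7 stellate cell markers summed to 522 to 573, 445 to 547 and 537 to 564 CPM, and the 5 cholangiocyte markers to 29.6 to 35.3, 27.3 to 40.2 and 23.3 to 34.4 CPM. The 7 lymphocyte markers summed to 17.5 to 25.1, 20.5 to 29.2 and 18.5 to 20.7 CPM. The part of other cell types in the receptor levels was not tested.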

How the data were processed

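RNA of 8 livers was extracted with TRIzol, made into stranded total RNA libraries and sequenced as paired ends. The authors deposited raw read counts per gene, aligned with STAR to GRCm38 and summarized by STAR on a GENCODE annotation whose release is not given in the sources used here. Each column was matched to a sample by its name, with 0 columns unused. The labels describe separate samples and the study separate animals. Of 49585 identifiers, 49326 were given a symbol from GENCODE M21. No liver was a repeat of another, the lowest chi-square between livers being 19.9 per gene.

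Counts were tested with edgeR 4.0.16 (quasi-likelihood test, TMM, filterByExpr by genotype) in R 4.3.3, with all 8 livers in 1 fit, so that LPfl/+ (n = 2) shared the spread of the others. P-values were adjusted by Benjamini-Hochberg over 16496 genes, and standard errors and 95% intervals come from the same fit. The study's cutoff was used, while its tool, DESeq2 (1.42.0), was an alternative. Other alternatives were edgeR fits with RLE size factors, no filter, at least 10 counts in every liver, or 2 groups only. Further edgeR fits took the replicate number as a block, took the library series as a covariate, or left out each liver in turn. Ratios within a series were taken from CPM. Fits were tested on simulated data. Promoters came from the RefSeq table for GRCm38.p6. Figures were drawn with matplotlib 3.10.9.

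The receptors and gene lists were chosen with earlier results of these data known, and no list is independent evidence. Named genes were all 10 receptors, 8 textbook targets, Trp53 and Cdkn1a, up to 3 genes of smallest unadjusted p in each list, and for each receptor the 2 genes of highest correlation. Rxrb, Tomm40l, Arntl and the genes listed as not overlapping between library series were named, and that overlap was counted, after the values were seen. Cyp2b9 was not among the genes planned to be named. Intervals cover the spread between livers. Totals of 26304526 to 31370714 counts put every receptor at 59 counts or more in every liver. Single values of some genes of the lists are not reported here, and the counts over the lists include them.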

Additional observations from a re-analysis of the deposited data

How the results depend on the processing

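Under no alternative other than leaving out LP+/+ replicate 1 did a receptor pass the cutoff, and 8 of 30 receptor values kept their direction and their side of the threshold under every alternative. DESeq2, RLE size factors, either filter and a fit of 2 groups only reversed 0 of the 30. In the order LP245/+ against LP+/+, LPfl/+ against LP+/+ and LP245/+ against LPfl/+, genes past the cutoff numbered 10, 9 and 56 with DESeq2 and 20, 14 and 122 without a filter, 3, 3 and 10 with the library series as a covariate, 0 with the replicate block in the first comparison and 51 with 2 groups only in the last. Receptors with an unadjusted p below 0.05 became 1 without a filter and 1 with the series in LP245/+ against LP+/+, and 1 with DESeq2, 2 without a filter, 1 with 2 groups only and 2 with the series in LPfl/+ against LP+/+. The cause of these shifts was not tested.

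The series as a covariate reversed 13 of 30 values. LP245/+ against LP+/+ gave Nr1i2 -0.067, Ppard 0.023 and Nr3c1 0.018, LPfl/+ against LP+/+ gave Nr1i2 0.32, Nr1i3 0.44, Ppara 0.013 and Pparg 0.29, and LP245/+ against LPfl/+ gave Nr1i2 -0.39, Nr1i3 -0.86, Ppara -0.011, Ppard 1.85, Pparg -0.57 and Nr1h3 -0.015. By its construction the last comparison then rests on LP+/+ replicate 1 against replicates 2 and 3. Ratios within a series were 0.022 for Ppard in LP245/+ and, in LPfl/+, 0.32 for Nr1i2, 0.44 for Nr1i3, 0.013 for Ppara, -1.83 for Ppard, 0.29 for Pparg and 0.049 for Nr3c1, each on the log2 scale.

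Same-numbered livers did not deviate together (correlations of -0.075 to 0.024), so the numbers were not taken as pairs. The replicate block gave log2 fold changes of 0.054 for Nr1i3 in LP245/+ and 0.022 for Nr1i2 in LPfl/+, against LP+/+, and 0.15 for Ppard and -0.022 for Nr1h3 in LP245/+ against LPfl/+, 4 reversals of 30, and changed no other receptor's side of the threshold.

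With each liver left out in turn, genes past the cutoff ranged from 0 to 5, 0 to 59 and 0 to 47, with 59 and 47 both reached without LP+/+ replicate 1, and receptors with an unadjusted p below 0.05 from 0 to 2, 0 to 2 and 0 to 3. Leaving out an LPfl/+ liver assumes that the other varies like the rest. In LP245/+ against LP+/+ the ranges were -0.067 to 0.35 for Nr1i2, -0.42 to 0.27 for Nr1i3, -1.38 to 0.023 for Ppard, -0.28 to 0.096 for Pparg, -0.021 to 0.079 for Rxra, -0.15 to 0.13 for Nr1h2, -0.068 to 0.057 for Nr5a2 and -0.025 to 0.018 for Nr3c1. In LPfl/+ against LP+/+ they were -0.33 to 0.082 for Nr1i2, -1.10 to -0.41 for Nr1i3, -1.18 to 0.22 for Ppard and -0.21 to 0.22 for Nr5a2. In LP245/+ against LPfl/+ they were -0.0057 to 0.35 for Pparg, -0.072 to 0.073 for Nr1h3, -0.013 to 0.27 for Nr1h2 and -0.24 to 0.19 for Nr5a2. With 2 or 3 livers a group, the intervals of the receptors, not their counts, limit what can be seen.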

Other observations

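The genes whose log2 CPM followed each receptor most closely over the 8 livers are given as a description, picked as the highest of 16496 genes, with points that share genotype and library series. Nr1i2, Nr1i3, Ppara and Nr3c1 parted by library series, so their values mix the step between series with the spread inside them. For Nr1i2 they were Cyp2c54, a cytochrome P450 of the liver (Pearson r = 0.967), and Acadl, a dehydrogenase of long-chain fatty acids (0.961). For Nr1i3 they were Gm16536 (0.974) and Lmcd1 (0.967), and for Ppara they were Max, the dimer partner of Myc (0.981), and Cebpe (0.976). Ppard was closest to Cs, citrate synthase (0.953), and Prepl (0.951), over points of which LP+/+ replicate 1 stood apart. Pparg was closest to Slc27a1, a fatty acid transporter (0.974), and Dap (0.951), and Rxra to Nptx1 (0.986) and Pi4kb (0.980). Nr1h3 was closest to Plekha3 (0.991) and Eif3k (0.975), Nr1h2 to Tbc1d7 (0.979) and Ubqln2 (0.973), Nr5a2 to Vwa5a (0.952) and Pik3c3 (0.938), and Nr3c1 to Slc37a2 (0.976) and Cd46 (0.947).

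The share of genes tested for which a liver held the highest or the lowest value ran from 19.8% in LP245/+ replicate 2 to 33.2% in LP245/+ replicate 3, with 26.5% in LP+/+ replicate 1. Among the 10 receptors, LP+/+ replicate 1 was highest in 1 and lowest in 2, and LP245/+ replicate 3 was highest in 1 and lowest in 3.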
